A study of Mus musculus with 9 samples.

Results

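The 3 genes C1qa, C1qb and C1qc encode the A, B and C chains of complement component C1q. Their rows were found by gene symbol among the 45513 genes of a liver RNA-sequencing count table, and all 3 passed the filter on low counts and were among the 12102 genes tested. The libraries came from livers of C57BL/6 mice kept for 9 weeks on their diet and treatment, in 3 groups of 3. The first received the normal diet and vehicle, the second the high fat diet and vehicle (the high fat vehicle group), and the third the high fat diet and B-LGND2 (the B-LGND2 group). B-LGND2 is known here only by that code name, and the series title presents it as an estrogen receptor beta ligand. The sources used here do not give dose, sex, age or diet composition. The design text gives an n of 3 per group and no batch is labelled. The p-values of single genes set each difference against the spread within groups among these samples. An unlabelled batch that followed the groups could not be told apart from them.

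C1q is the recognition part of the first complement component. Each C1q molecule is built from trimers of 1 A, 1 B and 1 C chain, whose collagen-like stalks hold the proteases C1r and C1s and whose globular heads bind antibody complexes, apoptotic cells and other ligands. Macrophages and dendritic cells are the main source of C1q, with Kupffer cells, the resident macrophages of the liver, prominent among them, while hepatocytes make most other complement proteins. Since the chains assemble in fixed proportion, their transcripts are usually considered together, and their ratios can be compared within a library without any scaling between libraries.

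The genes lay side by side on the minus strand of chromosome 4 (GRCm38), within 18675 bases: C1qb at chr4:136880129-136886187, C1qc at chr4:136889804-136893065 and C1qa at chr4:136895917-136898803. Each coding transcript had 3 exons, with 1040 bases in C1qa, 1088 in C1qb and 1203 in C1qc, and no other annotated gene overlapped the 3 spans. C1qc also had a processed transcript of 946 bases without a coding frame, which the gene-level counts do not separate. The coding frames were 738, 762 and 741 bases long in the order A, B and C.

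The stretches printed here come from the part of each coding frame that gives C1q its collagen-like stalk, and need not cover all of it. Each is the longest uninterrupted run in which a glycine codon (GGN, in capitals) is followed by a pair of other codons, 5′ to 3′ on the coding strand, from the GENCODE M21 transcripts.
C1qa, coding bases 184 to 327: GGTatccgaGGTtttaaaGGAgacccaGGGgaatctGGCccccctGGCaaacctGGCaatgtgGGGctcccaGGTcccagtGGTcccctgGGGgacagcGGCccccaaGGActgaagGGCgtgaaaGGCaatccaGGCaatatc
C1qb, coding bases 91 to 351: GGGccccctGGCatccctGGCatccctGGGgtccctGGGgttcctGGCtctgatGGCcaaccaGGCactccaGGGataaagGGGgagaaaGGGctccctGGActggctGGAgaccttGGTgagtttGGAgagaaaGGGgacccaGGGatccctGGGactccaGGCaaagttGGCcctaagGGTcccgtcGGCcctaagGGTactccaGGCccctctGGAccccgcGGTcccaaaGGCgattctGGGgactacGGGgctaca
C1qc, coding bases 202 to 345: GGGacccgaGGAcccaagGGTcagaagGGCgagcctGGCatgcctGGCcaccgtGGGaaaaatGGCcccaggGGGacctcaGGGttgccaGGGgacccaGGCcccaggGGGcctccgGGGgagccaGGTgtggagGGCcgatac
The run held 29 glycine triplets in C1qb and 16 in each of C1qa and C1qc. Triplets outside the longest unbroken run were not counted, so these numbers do not compare the lengths of the stalks. Over the aligned coding frames the chains shared 59.8% of bases between C1qa and C1qb, 63.1% between C1qa and C1qc and 62.3% between C1qb and C1qc. The longest stretch identical in a pair of chains was 15 bases, between C1qb and C1qc.

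Because the 3 genes moved together, the sequence just upstream of the annotated starts is shown for the chains with an entry in the RefSeq promoter table (GRCm38.p6), C1qb and C1qc. Capitals mark matches, on either strand, to 3 short motifs searched in these windows: GAGGAA (the core bound by PU.1, the product of Spi1), TGCTGA (a MAF half-site) and AGGTCA (a nuclear receptor half-site).
C1qb, chr4:136886201-136886450, minus strand: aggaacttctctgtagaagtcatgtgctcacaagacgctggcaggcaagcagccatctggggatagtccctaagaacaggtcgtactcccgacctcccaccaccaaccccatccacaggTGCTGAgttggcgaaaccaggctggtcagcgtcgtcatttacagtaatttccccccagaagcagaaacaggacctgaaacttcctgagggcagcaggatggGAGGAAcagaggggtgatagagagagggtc
C1qc, chr4:136893066-136893164, minus strand: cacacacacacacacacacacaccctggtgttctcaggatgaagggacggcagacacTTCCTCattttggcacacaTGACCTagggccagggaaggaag
GAGGAA was found once in each window, TGCTGA once in C1qb and AGGTCA once in C1qc, where both matches read on the opposite strand. Of 32851 RefSeq promoter windows of mouse genes, which are longer than the stretches printed, 28.3% held GAGGAA, 19.5% TGCTGA and 16.3% AGGTCA, so single matches are common and describe letters, not binding.

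Total counts per library ran from 5778978 to 10322972. Hepatocyte markers such as Alb, Apoa1 and Ttr matched the liver label, with summed levels of the 9 listed genes from 76280 to 116996 CPM (counts per 1e+06 counts of a library, on scaled library sizes). The groups differed in the share of counts in gene models of ribosomal RNA (rRNA), at 3.16% to 3.74% in the normal diet group, 0.901% to 1.44% in the high fat vehicle group and 4.31% to 6.19% in the B-LGND2 group. This share does not overlap between groups and so cannot be told apart from diet and treatment. Normal diet replicate 1 had 12.7% of counts in mitochondrially encoded transcripts against at most 6.12% elsewhere. B-LGND2 replicate 1 had relatively more counts in GC-rich transcripts, with a Spearman correlation across genes of 0.50 between GC content and deviation from the mean log level, against at most 0.08 in the other libraries. The same correlation with transcript length was 0.30 to 0.36 in the high fat vehicle group and -0.24 to 0.08 in the B-LGND2 group. On normal diet it ran from -0.50 in replicate 3 to 0.20 in replicate 1. High fat vehicle libraries thus leaned to longer transcripts, without overlap with the other groups.

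All 3 C1q chains were higher in B-LGND2 livers than in either vehicle group, while the vehicle groups overlapped. C1qa had 246, 260 and 496 counts in replicates 1, 2 and 3 in the normal diet group, 211, 221 and 312 in the high fat vehicle group and 1949, 881 and 913 in the B-LGND2 group. C1qb had 381, 350 and 771 counts in the normal diet group, 338, 329 and 487 in the high fat vehicle group and 2105, 1191 and 1331 in the B-LGND2 group. C1qc had 388, 248 and 390 counts in the normal diet group, 271, 342 and 407 in the high fat vehicle group and 1563, 787 and 1240 in the B-LGND2 group. The lowest B-LGND2 library exceeded the highest vehicle library for every chain, and B-LGND2 replicate 1, the deepest library, had the most counts of each chain.

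Scaled to library size, the order of the B-LGND2 libraries depended on the chain. C1qa stood at 38.4, 43.0 and 68.6 CPM in the normal diet group, 34.8, 33.2 and 43.5 in the high fat vehicle group and 226, 130 and 152 in the B-LGND2 group. C1qb stood at 59.4, 57.9 and 107 CPM in the normal diet group, 55.7, 49.5 and 67.9 in the high fat vehicle group and 244, 175 and 222 in the B-LGND2 group. C1qc stood at 60.5, 41.0 and 53.9 CPM in the normal diet group, 44.7, 51.4 and 56.7 in the high fat vehicle group and 181, 116 and 206 in the B-LGND2 group. B-LGND2 replicate 1 was thus the highest library for C1qa and C1qb and replicate 3 for C1qc, and replicate 2 was the lowest of its group for all 3 chains. On normal diet, replicate 3 was the highest library for C1qa and C1qb but not for C1qc.

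**Figure D1:**
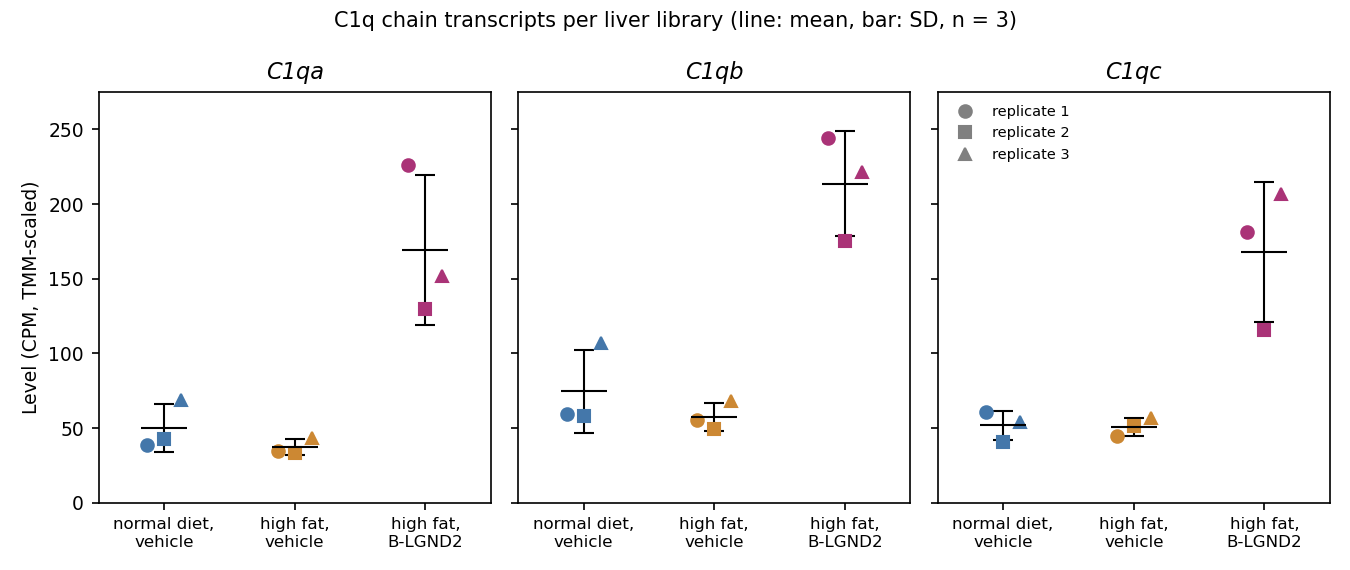
Level of each C1q chain (vertical axis, CPM on TMM-scaled library sizes) in the 9 libraries, by group. Points are libraries, marked by replicate number, horizontal lines are group means and bars are SDs of 3 libraries. Every B-LGND2 library lies above every vehicle library in all 3 panels, from 116 CPM (C1qc, replicate 2) to 244 CPM (C1qb, replicate 1).

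On the high fat diet, the chains rose with B-LGND2 by 2.19 (C1qa, SE 0.27), 1.89 (C1qb, SE 0.26) and 1.72 (C1qc, SE 0.25) on the log2 scale. The adjusted p was 5.04e-04 for C1qa, 0.00139 for C1qb and 0.00163 for C1qc in the quasi-likelihood test of edgeR, Benjamini-Hochberg adjusted over all genes tested. All 3 members were thus called higher, where 3.07% of all genes tested were (5.63% in either direction), and none of the 3 overlapped between the groups, where 16.4% of genes lay wholly higher with B-LGND2. By p-value the chains ranked 11, 15 and 20 of the 12102 genes in the order A, B and C. In bulk RNA, more C1q-expressing cells and more C1q RNA per cell cannot be told apart. The 3 calls were lost when the rRNA share was added as a covariate, where the log2 fold changes were 2.02, 2.42 and 3.22 with adjusted p = 0.831, 0.713 and 0.307 by the same edgeR test. They were kept in each fit that left out 1 library, with an adjusted p of at most 0.00673, 0.0127 and 0.0201.

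Against normal diet livers, B-LGND2 livers had 1.76 (C1qa, SE 0.27), 1.52 (C1qb, SE 0.26) and 1.69 (C1qc, SE 0.25) more on the log2 scale. These differences passed the edgeR test with adjusted p = 0.00249, 0.00598 and 0.00166. The 3 members were called higher where 1.59% of genes were (2.93% in either direction), and lay wholly above the normal diet libraries where 10.5% of genes did. This comparison shares its B-LGND2 libraries with the previous one, so the values are not independent of it. With the rRNA share as a covariate, the calls of C1qa (1.68, adjusted p = 0.350) and C1qb (1.78, adjusted p = 0.276) were lost in the edgeR fit.

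Between the vehicle groups no chain passed the test, where 2.99% of genes did. The high fat minus normal diet difference was -0.43 for C1qa (SE 0.27, adjusted p = 0.362), -0.37 for C1qb (SE 0.26, adjusted p = 0.409) and -0.02 for C1qc (SE 0.24, adjusted p = 0.967) on the log2 scale in edgeR's test. None of the 3 had an unadjusted p under 0.05 in edgeR, and none was called by DESeq2 or limma-voom. Normal diet replicate 3 lay above all high fat vehicle libraries for C1qa and C1qb, and replicates 1 and 2 lay among them. The sign for C1qc was not settled, at 0.15 without scaling and from -0.17 to 0.10 when libraries were left out in turn. In mean level over 3 libraries, the groups were ordered B-LGND2, normal diet, high fat vehicle for each chain, and the lower 2 of that order did not differ beyond their spread: C1qc, for instance, averaged 51.8 ± 9.92 CPM on normal diet and 51.0 ± 6.03 in the high fat vehicle group (SD, n = 3 each).

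**Figure D2:**
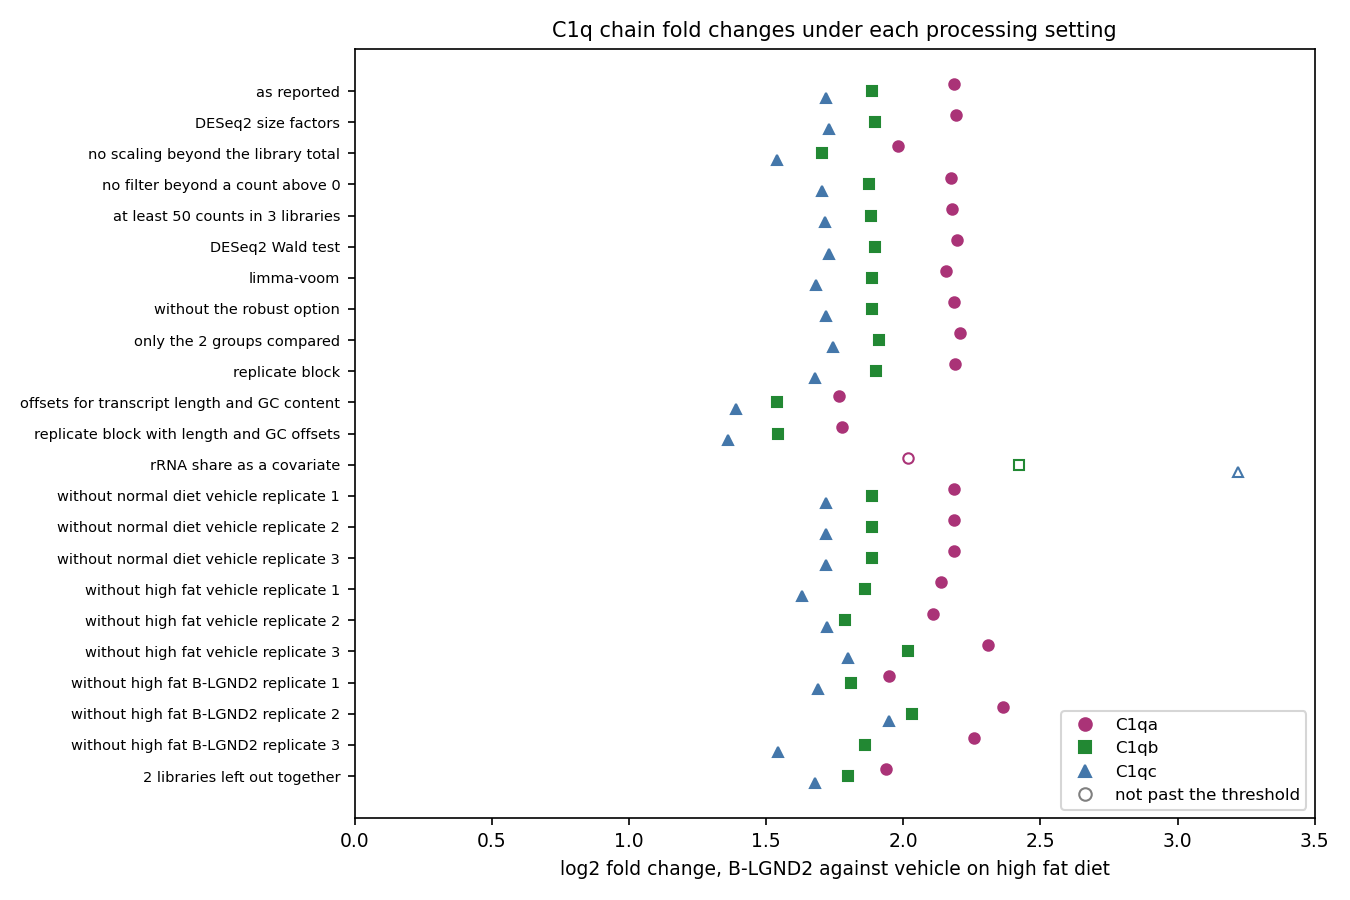
Log2 fold change of each C1q chain with B-LGND2 over vehicle in high fat livers (horizontal axis) under each processing setting (vertical axis). Filled symbols passed an adjusted p of 0.05 and open symbols did not; the 3 open symbols all belong to the fit with the rRNA share as a covariate, at 2.02, 2.42 and 3.22.

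Per transcript length, C1qb was the most abundant chain in 9 of 9 libraries, although by counts alone C1qc exceeded it in 2. The group means of C1qb were 68.6 CPM per kilobase of transcript in the normal diet group, 53.0 in the high fat vehicle group and 196 in the B-LGND2 group. C1qa stood at 48.1, 35.7 and 163 CPM per kilobase in the same groups, and C1qc at 43.1, 42.4 and 139. C1qa lay above C1qc in the normal diet and B-LGND2 means and below it in the high fat vehicle mean.

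The balance between the chains was first read as each chain's share of the counts of all 3. In the high fat vehicle group the C1qa share was 25.7%, 24.8% and 25.9% in replicates 1, 2 and 3, a spread smaller than the counting intervals of these libraries. With B-LGND2 the C1qa share was 34.7%, 30.8% and 26.2%, which spans more than counting error: the exact 95% binomial interval (Clopper-Pearson) was 33.5% to 36.0% in replicate 1 and 24.8% to 27.7% in replicate 3. On normal diet the C1qa share was 24.2%, 30.3% and 29.9%. These intervals cover counting error only, because amplified reads without molecular identifiers are not independent molecules. Whether the spread of the share differed between groups was not tested.

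C1qc was the chain whose share varied most. In the normal diet group it was 38.2% (interval 35.2% to 41.3%) in replicate 1, 28.9% in replicate 2 and 23.5% (21.5% to 25.7%) in replicate 3. The C1qc share was 33.0%, 38.3% and 33.7% in the high fat vehicle group and 27.8%, 27.5% and 35.6% with B-LGND2. So B-LGND2 replicate 3 and normal diet replicate 1 stood on the C1qc-rich side of their groups and normal diet replicate 3 on the C1qc-poor side. The C1qb share kept within 36.9% to 46.5% over all libraries, with group means of 41.6% ± 4.55, 39.5% ± 2.30 and 39.1% ± 2.23 (SD, n = 3 each). Dividing the counts by a smooth of transcript length and GC content, fitted per library, left the shares nearly where they were: the normal diet C1qc shares became 38.2%, 28.9% and 23.8%, and the C1qa share of B-LGND2 replicate 1 became 33.7%.

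**Figure D3:**
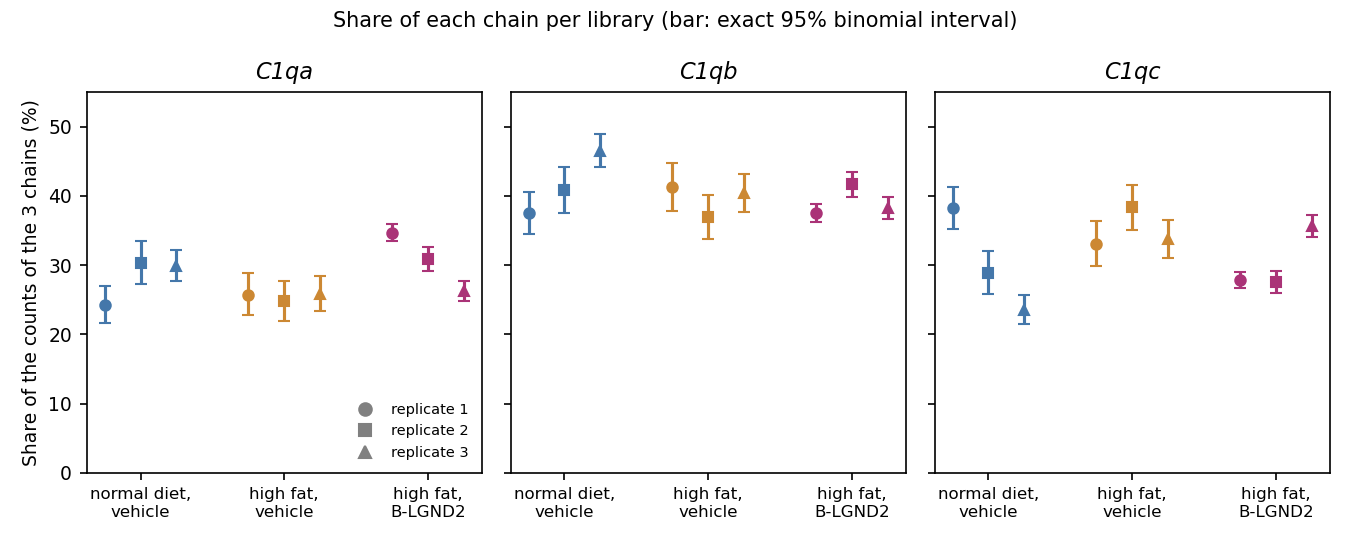
Share of each C1q chain among the counts of the 3 chains (vertical axis, %) in the 9 libraries, by group and marked by replicate number. Bars are exact 95% binomial intervals, which cover counting error only. The normal diet C1qc shares run from 38.2% to 23.5% without overlap of the outer intervals, and the high fat vehicle C1qa shares lie within 24.8% to 25.9%.

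The ratio of C1qa to C1qb counts was 0.646, 0.743 and 0.643 in the normal diet group, 0.624, 0.672 and 0.641 in the high fat vehicle group and 0.926, 0.740 and 0.686 in the B-LGND2 group. The B-LGND2 libraries lay above all high fat vehicle libraries. The mean difference was 0.27 on the log2 scale, with a two-sided exact permutation p of 0.1, the smallest that 3 against 3 libraries can give, and 0.6 after Benjamini-Hochberg adjustment over the 9 ratio comparisons. Without B-LGND2 replicate 1 the difference was 0.14. With 3 libraries a group this permutation test could not reach 0.05 for any ratio.

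The ratio of C1qa to C1qc was 0.634, 1.05 and 1.27 in the normal diet group, 0.779, 0.646 and 0.767 in the high fat vehicle group and 1.25, 1.12 and 0.736 in the B-LGND2 group. Here B-LGND2 replicate 3 lay among the high fat vehicle libraries, and the mean log2 difference of 0.47 had an exact permutation p of 0.3. The ratio of C1qb to C1qc was 0.982, 1.41 and 1.98 in the normal diet group, 1.25, 0.962 and 1.20 in the high fat vehicle group and 1.35, 1.51 and 1.07 in the B-LGND2 group. It overlapped between all groups, and the difference between B-LGND2 and high fat vehicle was 0.20 (exact permutation p = 0.4). That difference was 0.088 without high fat vehicle replicate 2, 0.092 without B-LGND2 replicate 2 and 0.34 without B-LGND2 replicate 3. Over the 9 comparisons the adjusted p ran from 0.6 to 0.9, which does not show that the ratios are equal: the normal diet libraries had an SD of 0.52 in the log2 ratio of C1qa to C1qc and 0.50 in that of C1qb to C1qc, against 0.15 and 0.20 in the high fat vehicle group.

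The genes beside the C1q cluster were undetected or did not pass the test. Epha8, next to C1qa, and Lactbl1 and Tex46, the outer genes beyond C1qb, had 0 counts in all 9 libraries, which allows up to 3 counts in each. Ephb2, the ephrin receptor gene next to C1qb, had 7 counts in all. Zbtb40, a zinc finger gene beyond Epha8, had a log2 fold change of 0.04 with B-LGND2 on the high fat diet (SE 0.30, edgeR adjusted p = 0.944). Wnt4, a secreted Wnt ligand, was at 0.80 (SE 0.53, edgeR adjusted p = 0.370), with 59 of its 185 counts in B-LGND2 replicate 1.

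The proteases that dock onto C1q did not pass the test for B-LGND2. C1ra, encoding C1r, stood at 156, 144 and 125 CPM in the normal diet group, 128, 101 and 108 in the high fat vehicle group and 147, 149 and 110 in the B-LGND2 group. Its log2 fold change with B-LGND2 on the high fat diet was 0.27 (SE 0.21, edgeR adjusted p = 0.455), and that of C1s1, encoding C1s and named after its values were seen, was -0.12 (SE 0.19, edgeR adjusted p = 0.735). C1q counts per count of C1ra were accordingly 1.02, 0.986 and 1.83 in the normal diet group, 1.06, 1.33 and 1.56 in the high fat vehicle group and 4.42, 2.83 and 5.30 in the B-LGND2 group. The same quotient against C1s1 had geometric means of 0.411, 0.312 and 1.27 in these groups. Reads could be split between C1ra and its copy C1rb and between C1s1 and C1s2, and both copies were too low to be tested.

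Of the 6 tested of 8 listed genes of the C1 proteases and classical pathway, none passed the edgeR test for B-LGND2 on the high fat diet, with a median log2 fold change of -0.25 against -0.0031 over all genes. At an unadjusted p under 0.05, 1 of the 6, C4b, differed in edgeR, DESeq2 called 1 and limma-voom 0. C4b, encoding a C4 form cleaved by C1s, rose on the high fat diet from 330, 269 and 248 CPM to 571, 686 and 560 (log2 fold change 1.10, SE 0.21, edgeR adjusted p = 0.0156), where 1.50% of all genes tested rose with diet. With B-LGND2 it stood at 358, 422 and 404 CPM, a log2 difference of -0.62 from high fat vehicle that did not pass (edgeR adjusted p = 0.0809). Its diet call was lost in 4 of the 9 fits that left out 1 library (normal diet replicate 2 and each high fat vehicle replicate; adjusted p 0.0567 to 0.0805). C4b is a near-identical copy of C4a, so their counts are uncertain.

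Among the regulators that restrain the pathway, 1 of 10 tested members rose with B-LGND2: Cd55, which speeds decay of the convertases, from 5.77, 1.96 and 3.62 to 14.6, 6.92 and 14.3 CPM (log2 fold change 1.66, SE 0.41, edgeR adjusted p = 0.0307). The list's median was 0.08, and 3.07% of all genes tested were called higher. That call was lost without replicate 2 or 3 of the high fat vehicle group or B-LGND2 replicate 1 or 3 (adjusted p 0.0788 to 0.149). Of 8 tested receptors and binding proteins of C1q, 1 rose: Lair1, an inhibitory collagen receptor that binds C1q, from 0.824, 1.20 and 1.67 to 3.24, 3.24 and 5.83 CPM (log2 fold change 1.69, SE 0.48, edgeR adjusted p = 0.0487). It was lost in 6 of 9 fits that left out a library, those without normal diet replicate 2, any high fat vehicle replicate or B-LGND2 replicate 1 or 3, with adjusted p 0.0532 to 0.174, and also in limma-voom. The list's median was 0.16, and Calr, Cd93 and Lrp1, further proposed C1q receptors, did not pass.

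Of the lectin and alternative pathways, 2 of 10 tested members rose, with a list median of 0.77, where 3.07% of all genes were called higher. The members ran from -2.35 to 1.75 on the log2 scale, and the lowest was not called. An unadjusted p under 0.05 in edgeR was reached by 7 of the 10. That rule is looser than the adjusted one, so the 3.07% is not its background. Fcna, encoding ficolin A, a lectin pathway recognition molecule that also has a collagen-like stalk, went from 25.9, 23.0 and 35.1 to 96.6, 61.4 and 124 CPM (log2 fold change 1.75, SE 0.29, edgeR adjusted p = 0.00494), and it kept its call in all 9 fits that left out a library. Cfp, encoding properdin, a myeloid product that stabilizes the alternative convertase, went from 9.73, 8.12 and 14.8 to 23.2, 28.3 and 34.0 CPM (log2 fold change 1.38, SE 0.30, edgeR adjusted p = 0.0193). The Cfp call was lost without replicate 1 or 2 of the high fat vehicle group or B-LGND2 replicate 3 (adjusted p 0.0570 to 0.108). Mbl1 and Mbl2, the mannose-binding lectins of hepatocytes, were at 1.33 and 0.77 and did not pass (edgeR adjusted p = 0.0630 and 0.0806).

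The terminal pathway, whose products form the membrane attack complex, had 1 of 6 tested members called, C8b, at 0.85 (SE 0.20, edgeR adjusted p = 0.0263), with a list median of -0.03. Among all genes tested, 3.07% were called higher. The C8b call was lost without any 1 of the high fat vehicle replicates or B-LGND2 replicate 1 (adjusted p 0.0536 to 0.159). Of 4 tested receptors for complement fragments, 1 rose: Vsig4, the complement receptor of the immunoglobulin family on Kupffer cells, from 10.2, 15.2 and 18.3 to 26.7, 38.1 and 47.1 CPM (log2 fold change 1.35, SE 0.30, edgeR adjusted p = 0.0193). The Vsig4 call was lost without replicate 1 or 2 of the high fat vehicle group or B-LGND2 replicate 3 (adjusted p 0.0624 to 0.101). All 4 receptor genes had a positive log2 fold change, with a median of 1.15. Of 25 listed genes whose products carry a C1q-like globular domain, 5 were tested and 1 rose, C1qtnf1, at 1.05 (SE 0.25, edgeR adjusted p = 0.0247). The C1qtnf1 call was lost without any 1 of the high fat vehicle replicates or B-LGND2 replicate 1 (adjusted p 0.0778 to 0.118). All 5 tested genes were positive, as were 49.67% of all genes tested. Their median was 0.86, and 3 of the 5 had an unadjusted p under 0.05 in edgeR.

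**Figure D4:**
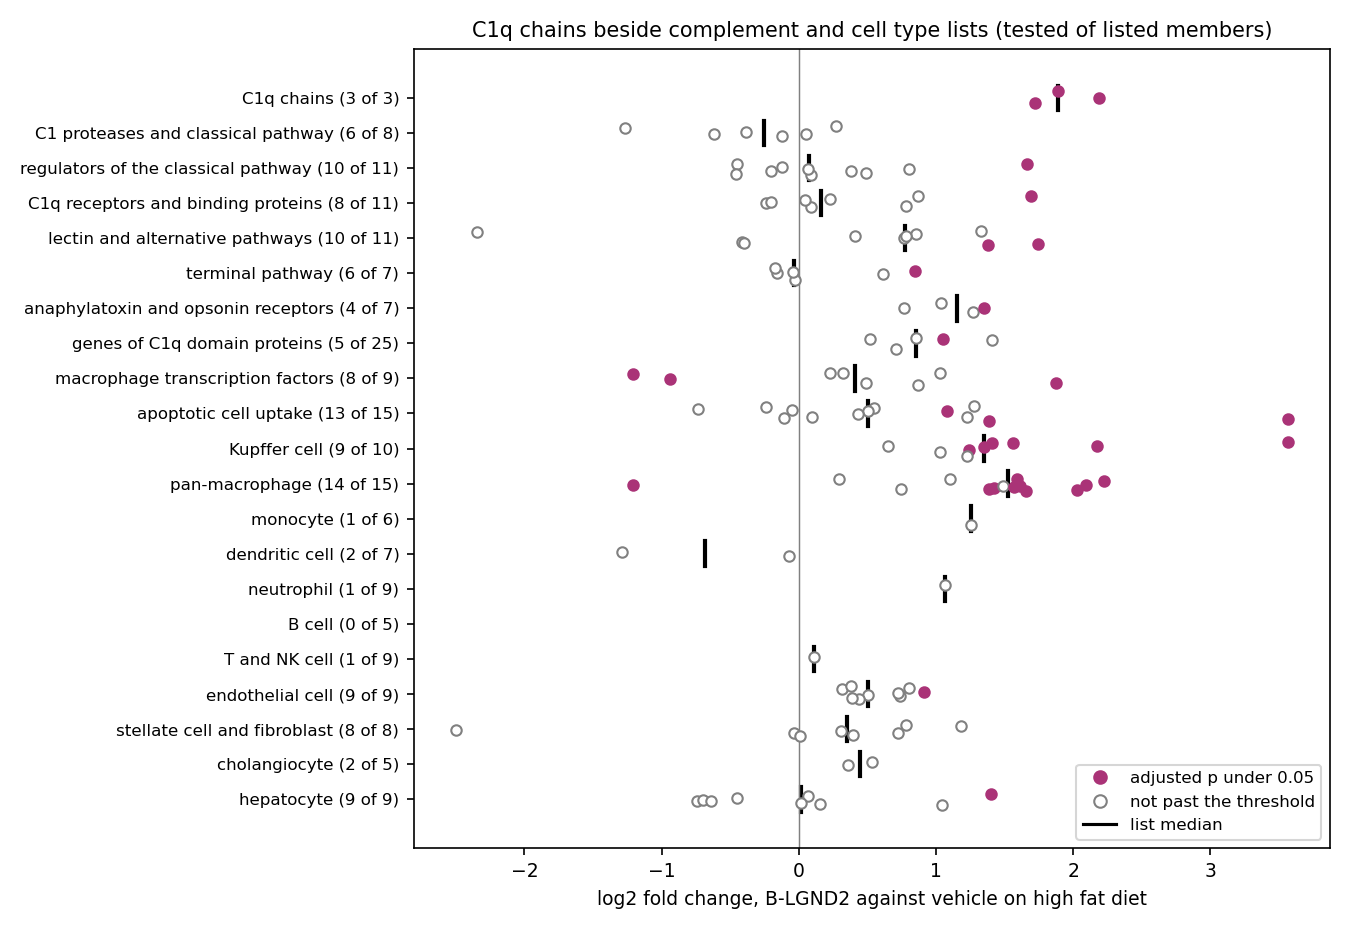
Log2 fold change with B-LGND2 over vehicle in high fat livers (horizontal axis) for the tested members of each list (vertical axis, tested of listed members). Points are genes, filled where the adjusted p was under 0.05, and black lines are list medians. The C1q chains, at 1.72 to 2.19, lie to the right of the medians of the other complement lists, which run from -0.25 for the classical pathway to 1.15 for the receptors of complement fragments.

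Markers of the macrophages that make C1q moved with it. Of 9 tested Kupffer cell markers 6 rose with B-LGND2 on the high fat diet and 0 fell, with a median log2 fold change of 1.35, and the summed level of the 10 listed genes was 381 to 561 CPM in the normal diet group, 309 to 409 in the high fat vehicle group and 929 to 994 in the B-LGND2 group. Of 14 tested pan-macrophage genes 9 rose and 1 fell, with a median of 1.53 and summed levels of 236 to 325, 356 to 383 and 433 to 611 CPM. Among all genes tested, 3.07% were called higher and 2.56% lower. The number of Kupffer cell markers called was 2 without high fat vehicle replicate 1 or 2 and 4 without B-LGND2 replicate 1, and that of pan-macrophage genes was 4 and 3 without high fat vehicle replicates 1 and 2, and 6 without high fat vehicle replicate 3 or B-LGND2 replicate 3. With the rRNA share as a covariate, 0 members of the complement, macrophage and other cell type lists were called for B-LGND2 on the high fat diet. The part of cell number in the C1q result was not tested.

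Set against single macrophage genes, the C1q total gave quotients that were higher with B-LGND2 for some genes and overlapped for others. These differences were not tested. The share of all genes whose quotient would separate the groups was not computed. C1q counts per count of Clec4f, a C-type lectin found on Kupffer cells, had geometric means of 2.61 in the normal diet group, 2.37 in the high fat vehicle group and 3.74 in the B-LGND2 group, and every B-LGND2 library exceeded every high fat vehicle library. The same held for Folr2, a folate receptor of tissue macrophages (14.6, 15.8 and 22.2), and for Csf1r, the receptor for macrophage colony-stimulating factor (10.3, 6.08 and 8.51). Against Cd5l, a secreted macrophage protein, the means were 1.61, 1.63 and 1.35, and against Fcna 4.63, 5.26 and 6.00, with overlapping libraries in both cases. Against Timd4 (57.9, 55.9 and 91.1) and Cd68 (49.5, 47.0 and 81.0) every B-LGND2 library again exceeded every high fat vehicle library. For Csf1r, Timd4 and Cd68 the B-LGND2 libraries overlapped those on normal diet. Against Csf1r, normal diet libraries ran from 7.302 to 13.808 and B-LGND2 libraries from 7.335 to 9.837. Against Marco, a scavenger receptor of macrophages, the geometric means went the other way, at 173, 119 and 43.3, with overlapping libraries. Quotients against Vsig4, Cd163, Adgre1 and Lyz2 also overlapped between the B-LGND2 and high fat vehicle libraries.

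Of the monocyte, dendritic cell, neutrophil, B cell and T and NK cell lists, 1, 2, 1, 0 and 1 members had enough counts to be tested and none was called by edgeR, DESeq2 or limma-voom for B-LGND2 on the high fat diet, and 1 dendritic cell gene, Clec9a, had an unadjusted p under 0.05 in edgeR. Chil3 of the monocyte list and Ly6g and Mpo of the neutrophil list had 0 counts in all 9 libraries. Summed levels are given for the B-LGND2, high fat vehicle and normal diet groups in that order. The monocyte list stood at 3.24 to 5.44, 3.13 to 3.35 and 3.12 to 3.8 CPM. The neutrophil list stood at 5.56 to 10.01, 3.16 to 4.88 and 2.18 to 10.79 CPM. The T and NK cell list stood at 5.91 to 9.99, 4.45 to 5.41 and 3.8 to 5.61 CPM. The B cell list stood at 1.91 to 4.29, 0.45 to 1.15 and 2.21 to 2.81 CPM. The dendritic cell list stood at 8.83 to 9.85, 9.73 to 12.54 and 9.76 to 10.79 CPM. Of these sums, only that of T and NK cells lay above both vehicle groups with B-LGND2, and the differences were not tested. Of 9 endothelial genes 1 rose, Kdr, encoding a receptor for vascular endothelial growth factor, at 0.91 (SE 0.25, edgeR adjusted p = 0.0417), a call lost in 6 of 9 fits that left out a library: those without normal diet replicate 2, any high fat vehicle replicate or B-LGND2 replicate 1 or 3 (adjusted p 0.0551 to 0.208). All 9 endothelial genes had a positive log2 fold change (median 0.50), as did 49.67% of all genes tested. An unadjusted p under 0.05 in edgeR was reached by 5 of the 9. Among all genes tested, 3.07% were called higher under the adjusted threshold, a stricter rule than the unadjusted one. The endothelial sum was 245 to 279 CPM with B-LGND2 against 140 to 202, and the part of these cells in the C1q result was not tested. None of 8 stellate cell and fibroblast genes was called by edgeR, DESeq2 or limma-voom, and 2, Col1a1 and Pdgfrb, had an unadjusted p under 0.05 in edgeR. None of 2 tested cholangiocyte genes was called by edgeR, DESeq2 or limma-voom, and 0 had an unadjusted p under 0.05 in edgeR. Of 9 hepatocyte genes 1 rose, Apoa1, encoding the main protein of high-density lipoprotein, from 11792, 12982 and 13719 CPM in the high fat vehicle group to 58029, 23799 and 20050 in the B-LGND2 group (log2 fold change 1.40, SE 0.34, edgeR adjusted p = 0.0283). B-LGND2 replicate 1 was far above the other libraries, and the call was lost without it or without any high fat vehicle replicate (adjusted p 0.0840 to 0.120). The hepatocyte genes went in both directions, from -0.74 to 1.40 with a median of 0.02. Of the 9, 5 were positive, and 5 had an unadjusted p under 0.05 in edgeR.

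Among transcription factors of macrophages, 1 of 8 tested rose and 2 fell, where 3.07% of all genes were called higher and 2.56% lower. Spi1, encoding PU.1, went from 1.48, 2.11 and 2.93 to 10.1, 5.74 and 8.33 CPM (log2 fold change 1.87, SE 0.37, edgeR adjusted p = 0.0131). Cebpb, encoding a C/EBP factor that hepatocytes also express, fell by 0.94 (SE 0.25, edgeR adjusted p = 0.0401). Spi1 thus moved in the direction of the C1q chains and Cebpb in the opposite direction. The Spi1 call was lost without replicate 1 or 2 of the high fat vehicle group or B-LGND2 replicate 1 (adjusted p 0.0583 to 0.0725) and the Cebpb call without normal diet replicate 2, any high fat vehicle replicate or B-LGND2 replicate 1 or 3 (0.0597 to 0.172).

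C1q opsonizes dying cells for uptake. Of 13 tested genes of apoptotic cell uptake, 3 rose with B-LGND2 on the high fat diet and 0 fell, with a median of 0.50. Among all genes tested, 3.07% were called higher. Axl, a receptor tyrosine kinase that binds phosphatidylserine through Gas6, went from 15.3, 16.1 and 18.3 to 41.9, 33.4 and 54.6 CPM (log2 fold change 1.38, SE 0.25, edgeR adjusted p = 0.00797). Its ligand gene Gas6 was at 1.08 (SE 0.30, edgeR adjusted p = 0.0437) and Marco, a scavenger receptor, at 3.57 (SE 0.59, edgeR adjusted p = 0.00504), where B-LGND2 replicate 2 had 33.6 CPM against 6.49 and 8.99 in the other two. Axl lost its call without high fat vehicle replicate 1 or 2 (adjusted p 0.0505 and 0.0526), and Gas6 in all fits except those without normal diet replicate 1 or 3 (0.0511 to 0.171). Marco kept its call in all 9. The receptors Mertk and Timd4 did not pass.

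The genes whose pattern over the 9 libraries was nearest to that of C1q were then ranked by the root mean square difference of centred log2 CPM from the mean of the 3 chains, over 10222 genes whose average log2 CPM was 1 or more. The nearest were Fcna at 0.241, Cd5l at 0.242, Tbxa2r at 0.248, Spi1 at 0.258 and Ncf4 at 0.267. Tbxa2r encodes the thromboxane A2 receptor and Ncf4 a subunit of the phagocyte NADPH oxidase. Next came Tmem86a at 0.294, Gltp, encoding a glycolipid transfer protein, at 0.299, Folr2 at 0.305, the Fc receptor gene Fcgr3 at 0.310 and Clec12a, encoding a myeloid C-type lectin receptor, at 0.311. The chains themselves lay 0.164 (C1qa), 0.109 (C1qb) and 0.222 (C1qc) from their own mean, and the median gene lay 0.966 from it. These 10 genes were ranked on the same libraries, so their fold changes, from 1.39 for Fcgr3 to 2.23 for Ncf4 on the log2 scale with B-LGND2 on the high fat diet, describe the ranking and add no test.

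**Figure D5:**
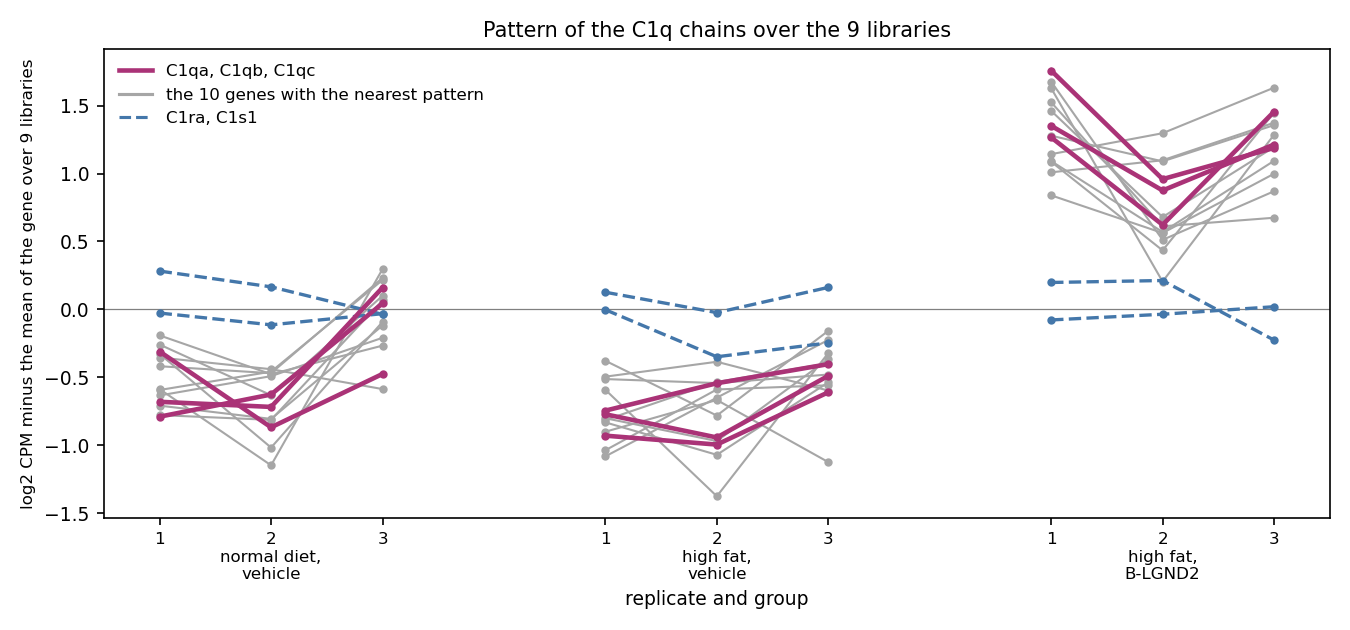
Log2 CPM of each gene minus its mean over the 9 libraries (vertical axis) by replicate and group (horizontal axis). Solid coloured lines are the C1q chains, grey lines the 10 genes with the nearest pattern and dashed lines C1ra and C1s1; lines join libraries of 1 group only to make genes traceable, as replicates have no order. Each C1q chain and each of its nearest genes was higher in every B-LGND2 library than in any other library, unlike C1ra and C1s1.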

How the data were processed

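Liver RNA was enriched for poly(A), made into amplified Ion Torrent libraries and sequenced on a Proton instrument, per the labels' protocols. The authors deposited raw read counts per Ensembl gene. The submitters' processing notes name HTSeq 0.6.1p1, TopHat2 2.0.13 with Bowtie2 2.2.4, DESeq2 1.6.3, SAMtools 0.1.19 and build GRCm38.p3. Annotation release and strand setting: not given in the sources used here. Symbols, spans and transcripts came from GENCODE M21, which matched 44671 of 45513 IDs, and promoter windows from RefSeq (GRCm38.p6).

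In R 4.3.3, edgeR 4.0.16 filtered genes (filterByExpr, minimum count 10), scaled libraries by the trimmed mean of M-values (TMM) and fitted 1 robust quasi-likelihood model to all 9 libraries (6 residual degrees of freedom), with Benjamini-Hochberg adjustment over 12102 genes and a threshold of 0.05. The fit was tested on simulated data. Chain ratios used raw counts and two-sided exact permutation tests. Alternatives included DESeq2 1.42.0, limma-voom (limma 3.58.1), other scalings and filters, length and GC offsets, the rRNA share and each library left out.

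No 2 libraries agreed within sampling noise (smallest chi-square per degree of freedom 13.0 over 36 pairs). The members and gene lists were chosen with earlier results of these data known. Beside the 3 chains, the rule named up to 4 members of each list with the smallest p for B-LGND2 on the high fat diet, all called members of lists with 5 or fewer calls, the 10 genes with the nearest pattern and 3 neighbouring protein-coding genes on each side. Other names in the text (C1s1, Calr, Mertk, Timd4 and the genes set against the C1q total) were chosen after their values were seen. The values of 1 called list member are not reported here.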

Additional observations from a re-analysis of the deposited data

How the results depend on the processing

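The direction and call of the 3 chains for B-LGND2 on the high fat diet held in 21 of 22 alternatives; the exception, in which the rRNA share was a covariate, gave 2.02, 2.42 and 3.22 for C1qa, C1qb and C1qc (adjusted p = 0.831, 0.713 and 0.307 in edgeR). Without 1 library in turn the log2 fold changes ran from 1.95 to 2.36, 1.79 to 2.03 and 1.54 to 1.95. Over all 22 alternatives the smallest were lower, at 1.77, 1.54 and 1.36. The fitted factor for length and GC content of the chains was 0.848 to 0.9085 in high fat vehicle libraries. In B-LGND2 libraries it was 0.9953 to 1.4153, so dividing by it lowers these fold changes. Against normal diet only the rRNA covariate ended the calls of C1qa (1.68) and C1qb (1.78), and C1qc kept its call in 22 of 22. The diet difference of C1qc changed sign without scaling (0.15), with length and GC offsets (0.16), with those offsets and the replicate block (0.17), when normal diet replicate 1 and B-LGND2 replicate 1 were left out together (0.086, chosen after seeing the data) and when single libraries were left out (-0.17 to 0.10). Without scaling, the median of all genes shifted to 0.17 for diet and -0.18 for B-LGND2. Under the rRNA covariate Gas6 (reported at 1.08) and Apoa1 (reported at 1.40) changed sign, to -0.38 and -0.33, and lost their calls. The cause of these changes was not tested. All 72 alternative values of the 9 chain ratio comparisons lay within 1 SD of the reported ones. Leaving out 1 of 3 libraries cannot move a difference that far, so those values do not test stability. Some signs changed. The B-LGND2 minus normal diet log2 difference in C1qa to C1qc was 0.094, and -0.19 without normal diet replicate 1. That in C1qb to C1qc was -0.11, and 0.14 without normal diet replicate 3. The diet difference in C1qa to C1qb was -0.067, and 0.0017 without normal diet replicate 2.

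The number of genes called for diet, for B-LGND2 on the high fat diet and for B-LGND2 against normal diet was 362, 681 and 354. It was 1182, 1345 and 751 without the filter, 984, 1123 and 660 by the DESeq2 Wald test, 153, 1420 and 144 with only the 2 groups compared, and 1, 2 and 12 with the rRNA covariate. It was 2381 for diet and 414 for B-LGND2 with the 2 libraries left out together, and 35 to 1860, 100 to 1439 and 111 to 639 with 1 library left out in turn. With the replicate block it was 203 for diet, and with the block and the offsets 163 for diet and 232 against normal diet. A pairing of samples by replicate number was not apparent. The deviations of same-numbered libraries correlated above 0.1 in 1 of 9 pairs (-0.193 to 0.124). Those of differently numbered libraries did so in 3 of 18 pairs (-0.125 to 0.178). Of 9 libraries, 3 correlated best with their own number. Deviations from means of 3 libraries are too weak a check to exclude pairing. Depth limits the low genes named, such as Lair1 and Ncf4, more than the chains.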
